A study of Mus musculus with 4 samples.

Results

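The organic ion and ATP-binding cassette (ABC) transporter genes were taken as all protein-coding genes of GENCODE release M21 whose symbols begin with Slco, Slc22a, Slc47a, Abcb, Abcc or Abcg followed by a digit, with Abcb11 left out. This rule on gene symbols uses no measured value and gave 66 genes of 21943. Binding of the glucocorticoid receptor (GR), the nuclear receptor for corticosterone and for the synthetic agonist dexamethasone (Dex), was measured near them by ChIP-seq of mouse liver at zeitgeber time (ZT) 18, in the dark phase. The ZT18 Dex group (2 libraries) came from male mice aged 6 to 8 weeks, given 1 mg/kg Dex by intraperitoneal injection. The ZT18 Vehicle group (2 libraries) came from male mice of the same age given the cyclodextrin carrier, and in both groups liver was taken 1 h after injection. The labels give all 4 libraries the genotype Hnf4afl/flAlbCre+/-, a floxed Hnf4a gene with a Cre recombinase driven in hepatocytes by the albumin promoter, whereas the methods of the study name C57BL/6 animals, and the genotype is not settled here. Each library came from 3 immunoprecipitations that were pooled, and separate animals are not stated for the libraries. The p-values of the main test below cover the spread between these samples only as a trend over all shared regions. They do not carry each region's own replicate spread. Whole liver holds several cell types, and a change in the share of cells cannot be told apart from a change in binding per cell.

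These proteins carry drugs, hormones, bile constituents and metabolites across membranes. The SLCO family (organic anion transporting polypeptides) and the SLC22 family (organic cation, anion and carnitine transporters) mostly bring substrates into cells, and in hepatocytes they sit largely on the sinusoidal side, facing the blood. SLC47A proteins exchange organic cations for protons, and many ABC proteins use ATP to move substrates out, at the canalicular membrane into bile or at the sinusoidal membrane back into blood. GR acts as a ligand-dependent transcription factor, and bound sites lie both at promoters and at distal elements, so a bound region near a gene need not act on that gene.

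Sequence is shown for the strongest region that rose with Dex at each of Slco1b2, Slc22a5 and Abcb4, for both regions with a complete glucocorticoid response element (GRE) near the centre, and for 2 promoters with an HNF4A match, these chosen after their values were seen. All are mm10 reference sequence on the plus strand, read from the GRCm38.p6 chromosomes. Capitals mark letters of a motif, given with the motif results further on. The 120-base windows have every searched motif marked, the 60-base windows only the GRE and the 40-base windows only the HNF4A match. The first 3 are windows of 120 bases about the centre of a region upstream of Slco1b2, Slc22a5 and Abcb4. The next 2 are windows of 60 bases about the GRE upstream of Slco1a4 and the GRE in an intron of Abcc2. The distance printed for Abcc2 is to its nearest annotated start site, which lies further along the gene. The last 2 are windows of 40 bases about an HNF4A match at the Slco2b1 and Abcb1a promoters.
Slco1b2, 14.0 kb upstream, chr6:141615411-141615530: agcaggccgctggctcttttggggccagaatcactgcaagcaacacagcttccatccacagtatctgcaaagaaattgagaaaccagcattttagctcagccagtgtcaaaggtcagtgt
Slc22a5, 12.6 kb upstream, chr11:53904187-53904306: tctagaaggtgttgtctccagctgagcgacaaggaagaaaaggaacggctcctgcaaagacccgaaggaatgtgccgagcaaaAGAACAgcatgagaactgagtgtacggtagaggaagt
Abcb4, 20.5 kb upstream, chr5:8873192-8873311: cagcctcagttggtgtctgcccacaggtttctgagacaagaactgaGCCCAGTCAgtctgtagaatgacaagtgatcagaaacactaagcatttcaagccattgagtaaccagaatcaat
Slco1a4, 1.67 kb upstream, chr6:141857850-141857909: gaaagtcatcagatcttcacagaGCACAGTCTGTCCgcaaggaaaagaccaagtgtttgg
Abcc2, 7.42 kb upstream, chr19:43831409-43831468: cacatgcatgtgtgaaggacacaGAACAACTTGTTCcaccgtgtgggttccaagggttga
Slco2b1, promoter, chr7:99695677-99695716: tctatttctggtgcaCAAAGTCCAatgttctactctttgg
Abcb1a, promoter, chr5:8660168-8660207: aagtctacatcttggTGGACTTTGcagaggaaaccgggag
In the Slc22a5 window the capitals are a single GR hexamer, in the Abcb4 window they are an antioxidant response element match, and in the Slco1b2 window no searched motif was found. The Slco2b1 window also holds a GR hexamer, left in lower case, and in the Abcc2 window a GR hexamer overlaps the GRE.

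Library totals were 64169077 and 65097597 reads in Dex, and 91494606 and 29179899 reads in Vehicle. The share of reads inside each treatment's own regions was 6.35% and 7.79% in Dex libraries 1 and 2, against 1.04% and 1.35% in Vehicle libraries 1 and 2. One region set existed per treatment, called across ZT6 and ZT18 libraries together, with 31343 Dex regions and 5883 Vehicle regions, so presence in a set has no replicate and no test. Cell type markers were counted by presence of a GR region. Of all protein-coding genes 50.2% had a Dex region and 18.3% a Vehicle region. All 8 hepatocyte markers had a Dex region and 5 had a Vehicle region. None of 6 Kupffer cell and macrophage markers had either, and 5 of 7 endothelial and stellate, 3 of 5 cholangiocyte and 1 of 3 lymphocyte markers had a Dex region. These counts describe binding and not expression, and their part in the results was not tested.

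GR regions were found at most of the transporter genes after Dex. By nearest protein-coding transcription start site (TSS), 45 of 66 genes (68.2%) had at least 1 region in the Dex set, where 50.2% of all protein-coding genes did. In the Vehicle set 17 genes (25.8%) had a region, against 18.3% of all genes, so 28 transporter genes had a region after Dex only. Together the genes held 154 Dex regions and 27 Vehicle regions. Each of the 27 Vehicle regions matched 1 Dex region, and 127 Dex regions (82.5%) had no Vehicle counterpart, a share near the 81.7% over all Dex regions. A Dex region lay over an own promoter, taken as the stretch from 2000 bp before to 200 bp after any annotated start, in 28 genes (42.4%, against 33.5% of all genes), and a Vehicle region did in 10 (15.2%, against 9.85% of all genes).

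Every family had Dex regions, and the counts below also reflect the number of genes in each family. Of 14 Slco genes, 8 had 30 Dex regions between them, and of 25 Slc22a genes 17 had 61. Both Slc47a genes were bound, with 3 regions. Among the ABC genes, 7 of 9 Abcb genes had 17 Dex regions, 8 of 10 Abcc genes had 32 and 3 of 6 Abcg genes had 11. Vehicle regions were found at 5 Slco, 6 Slc22a, 1 Slc47a, 2 Abcb, 1 Abcc and 2 Abcg genes. The Abcc family thus held the second largest number of Dex regions. A single gene of its 10, Abcc12, had Vehicle regions, where 18.3% of all protein-coding genes did, and no difference between families was tested.

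A group of 14 genes with 5 or more Dex regions held 95 of the 154. The matching share over all protein-coding genes is not given here, so this grouping is not shown to be particular to the transporters. Slc22a23, an orphan member of the SLC22 family, had 14. Next came Slco1b2, a hepatic uptake carrier for bile acids, bilirubin and many drugs in mice, and Abcc2, the canalicular export pump for conjugated bilirubin and other conjugates, with 8 each. Slc22a15, Slc22a16, Abcb4 and Abcc12 had 7 each, Slc22a5 and Abcg8 had 6 each, and Slco2a1, Slco2b1, Slco1a4, Slc22a4 and Abcc4 had 5 each. Another 15 genes had 1 region. The 21 genes without a Dex region included Slc22a3 and Abcc1, broadly expressed carriers of cations and of conjugates, and the mouse genes Slco1a5, Slco1a6, Slc22a27 and Slc22a28, which lie in clusters of close homologues. Abcg5 also had none by this rule, although a region assigned to its neighbour Abcg8 lay over the promoter of both.

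**Figure D1:**
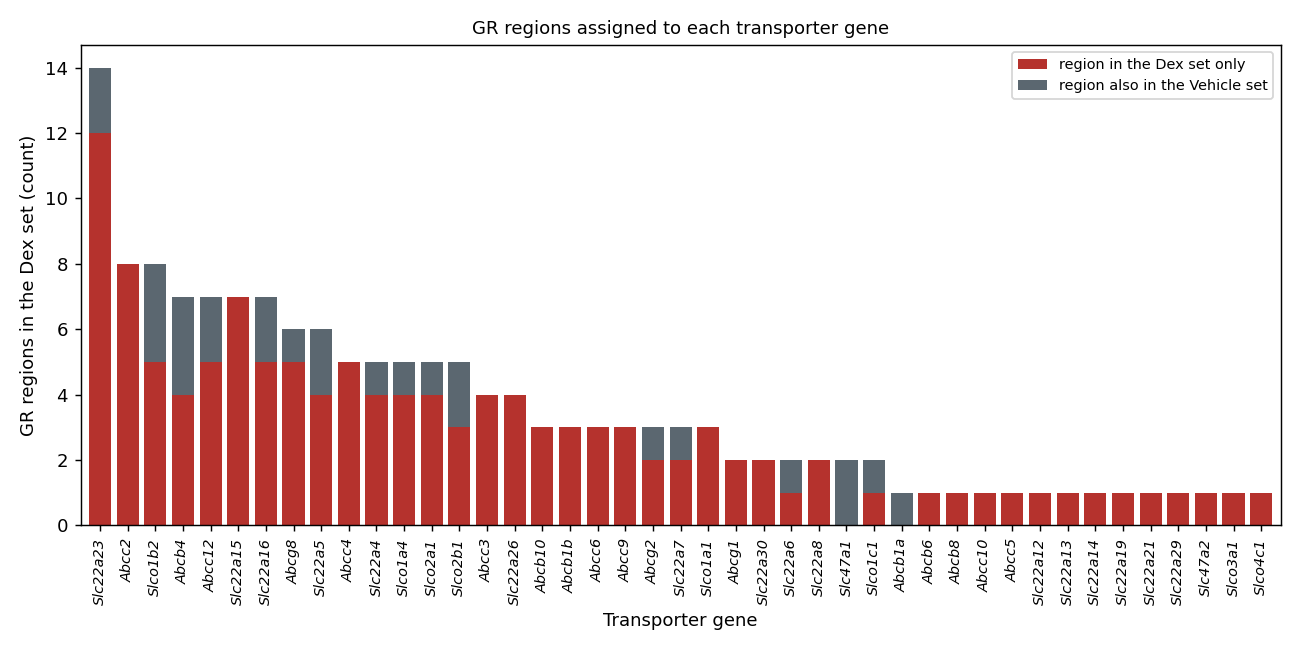
Number of GR regions in the Dex set (vertical axis, count) assigned to each of 43 of the 45 transporter genes that had any, with red for regions in the Dex set only and grey for regions matched in the Vehicle set. Slc22a23 had the most (14), and Abcc2 and Slc22a15 had 8 and 7 with none matched in Vehicle.

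By position, 43 of the 154 Dex regions (27.9%, against 33.4% of all Dex regions) lay over a promoter, 63 (40.9%, against 36.9%) in introns, 45 (29.2%, against 25.7%) between genes and 3 (1.95%, against 3.89%) in exons. The median distance to the nearest TSS was 14.2 kb, against 12.2 kb over all. GR signal is given as RPKM, the reads of a region scaled by its length in kilobases and by the total reads of the library. The median over the 154 regions of the mean Dex RPKM was 3.57, against 3.14 over all regions, with a range of 1.44 to 15.6. Regions that were also in the Vehicle set were the stronger ones, with a median of 5.51 RPKM, against 3.16 RPKM at regions found after Dex only (4.29 and 3.02 over all regions). Dex library 2 was above Dex library 1 at 125 of 154 regions (81.2%, against 75.0% of all).

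At the 27 regions present in both sets GR signal was compared between treatments in an edgeR quasi-likelihood test with Benjamini-Hochberg adjustment over all 5665 shared regions. Reads of each treatment were counted over its own region, and the Dex regions were a median 1.495 times as wide as the Vehicle ones. Region coordinates printed below are those of the Dex region, and the Vehicle values there belong to the matched Vehicle region. After Dex 7 transporter regions (25.9%) were higher at an adjusted p under 0.05, where 11.8% of all shared regions were, and 0 were lower, as over all. At an unadjusted p under 0.05, 12 were higher and 0 lower, where 29.0% of all shared regions were higher and 23 regions lower. DESeq2 called 3 transporter regions higher and 0 lower, where it called 265 of all shared regions higher and 28 lower. It gave no adjusted p to some of the 27, so its count leaves these out. Among them are regions that edgeR called, at Abcb4 (34.7 kb downstream), Slc22a16 (70.5 kb upstream) and Slco1b2 (38.5 kb upstream). The 7 regions belong to 4 genes, Slco1b2 (3 regions), Abcb4 (2 regions), Slc22a5 and Slc22a16. Their fold changes ran from 2.06 to 2.92, and 6 of them lay away from the gene's own promoters. The median log2 fold change over the 27 was 0.68, against 0.43 over all shared regions, and 25 of 27 were positive (20 with TMM scaling and 14 with shared-region totals), against 80.1% over all. Both Dex libraries exceeded both Vehicle libraries at 18 of 27 (66.7%, where 51.5% of all shared regions did), the ranges overlapped at 9, and at 0 did both Dex libraries lie below both Vehicle libraries (4.78% over all).

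The count of 7 rested on all 4 libraries and on the scaling. Without Dex library 1 it was 3, and without Dex library 2, Vehicle library 1 or Vehicle library 2 it was 0 each, with medians of 0.87, 0.49, 0.68 and 0.96. With TMM scaling, which sets the bulk of regions to no change, the median over all shared regions moved to -0.04 and the calls to 336 higher and 101 lower (666 and 0 without it). Then 2 transporter regions stayed past the threshold, those 20.5 kb upstream of Abcb4 and 12.6 kb upstream of Slc22a5, and the log2 fold changes of the 7 ran from 0.53 to 1.06. The transporter median lay 0.25 above the median of all shared regions on the log2 scale, a gap that a scaling common to all regions leaves in place by construction. It was 0.29 without Dex library 1, 0.21 without Dex library 2, 0.41 without Vehicle library 1 and 0.35 without Vehicle library 2.

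**Figure D2:**
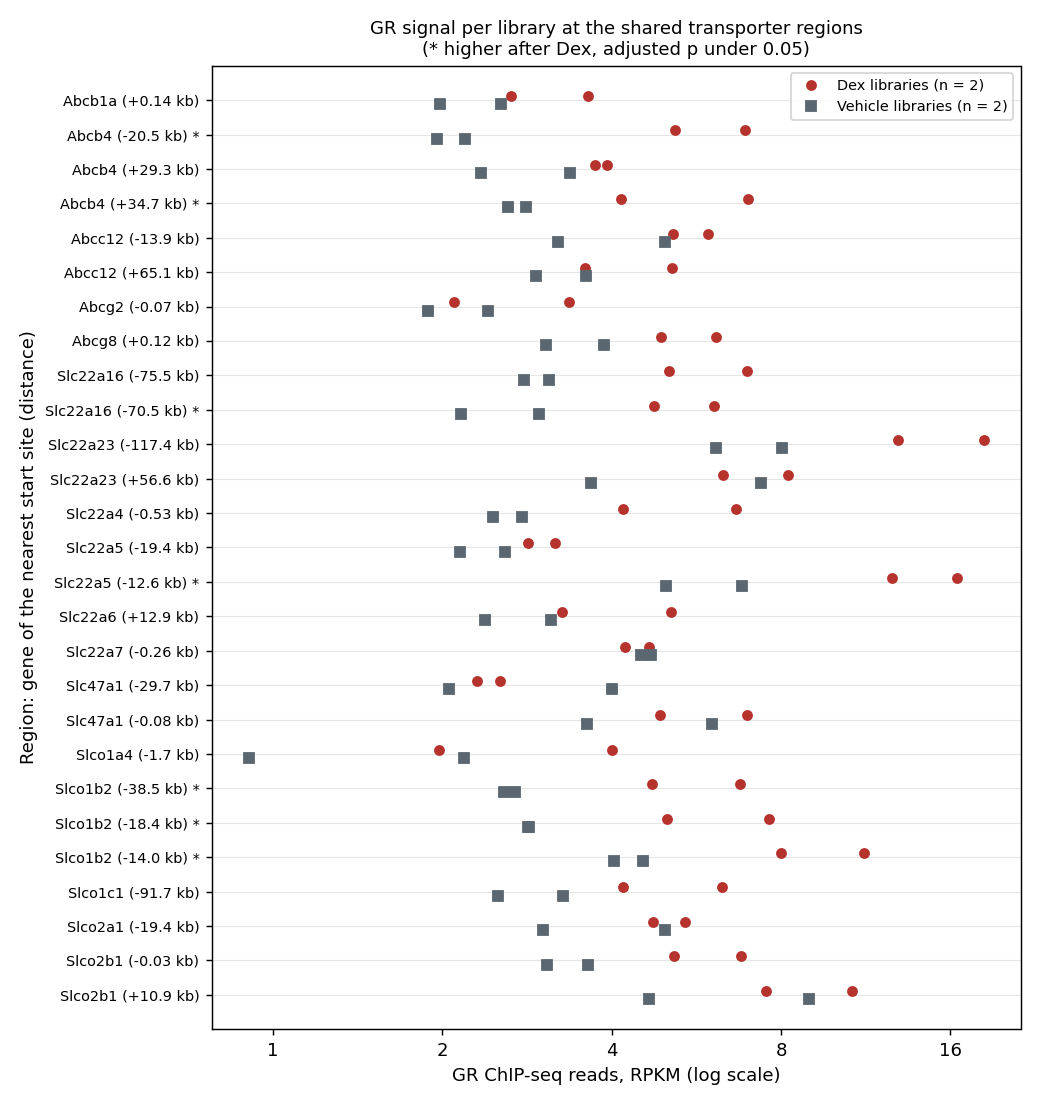
GR signal (horizontal axis, RPKM on a log scale) in each library at the 27 shared transporter regions, 1 row per region named by its nearest gene and distance to the start site, with red circles for the 2 Dex libraries above grey squares for the 2 Vehicle libraries. Circles lie to the right of both squares in 18 of 27 rows, and an asterisk marks the 7 regions higher after Dex.

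Slco1b2 had the most regions that rose. At 14.0 kb upstream (chr6:141615213-141615727, between genes) the signal was 8.00 and 11.2 RPKM in Dex, against 4.04 and 4.55 RPKM in Vehicle, a log2 fold change of 1.17 ± 0.39 (SE, adjusted p = 0.0324). At 18.4 kb upstream (chr6:141610735-141611481) it was 5.01 and 7.62 RPKM in Dex, against 2.85 and 2.84 RPKM in Vehicle (1.15 ± 0.37, adjusted p = 0.0284). At 38.5 kb upstream (chr6:141590661-141591318) it was 4.72 and 6.76 RPKM in Dex, against 2.69 and 2.58 RPKM in Vehicle (1.12 ± 0.35, adjusted p = 0.0228). The 3 regions were 2.17-fold to 2.25-fold higher, with no overlap between groups, and all are intergenic with Slco1c1 as the next gene, 66.5 to 90.9 kb away. The other 5 Slco1b2 regions were found after Dex only and were weaker. The one at its promoter had 1.56 and 2.00 RPKM, and the strongest, 6.43 kb downstream in an intron, had 2.17 and 4.60 RPKM.

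Slco2b1 and Slco2a1 also had shared regions, none of which passed the test. Slco2b1, a broadly expressed uptake carrier of steroid sulphates and drugs, had 5.15 and 6.78 RPKM in Dex at its promoter 28 bp from a TSS, against 3.07 and 3.63 RPKM in Vehicle (log2 fold change 0.84 ± 0.39, adjusted p = 0.123). Its intronic region 10.9 kb downstream, the strongest of this gene, had 7.53 and 10.7 RPKM in Dex, against 4.66 and 8.98 RPKM in Vehicle (0.44 ± 0.45, adjusted p = 0.549). The groups were apart at the promoter and overlapped in the intron, and neither passed the test. Slco2a1, the prostaglandin transporter, had 7.69 and 10.7 RPKM at an intronic region 11.5 kb upstream of the nearest TSS that was in the Dex set only, the highest of the Dex-only transporter regions by mean. Its shared region at an upstream start site had 4.73 and 5.39 RPKM in Dex, against 3.01 and 4.98 RPKM in Vehicle (0.37 ± 0.36, adjusted p = 0.514).

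Slco1a4, a carrier of organic anions including bile acids and steroid conjugates, had the weakest shared region by the mean of the 4 libraries, 1.67 kb upstream of its TSS and holding the GRE printed above. It had 1.97 and 4.01 RPKM in Dex (50 and 103 reads), against 2.19 and 0.905 RPKM in Vehicle (53 and 7 reads), a log2 fold change of 0.80 ± 0.42 (adjusted p = 0.180). Dex library 1 lay below Vehicle library 1, so the groups overlapped and the test was not passed. Slco1a1, a male-predominant hepatic carrier of the same family in mice, had 3 regions in the Dex set only, the strongest 14.6 kb upstream with 2.37 and 2.83 RPKM. Slco1c1, the thyroxine carrier of brain vessels, was the nearest gene to a region 91.7 kb away inside an intron of Pde3a, with 4.18 and 6.29 RPKM in Dex, against 2.51 and 3.27 RPKM in Vehicle (0.87 ± 0.40, adjusted p = 0.122).

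Among SLC22 genes, Slc22a5, the carnitine transporter, had the second strongest region of the whole set. At 12.6 kb upstream (chr11:53903853-53904639), over the promoter of the annotated gene Gm12218, it had 12.6 and 16.4 RPKM in Dex, against 4.98 and 6.81 RPKM in Vehicle (log2 fold change 1.31 ± 0.46, adjusted p = 0.0415). Both Dex libraries were well above both Vehicle libraries. A neighbouring region 11.5 kb upstream with 4.92 and 7.58 RPKM was found after Dex only. The other shared region of this gene, 19.4 kb upstream, had 2.84 and 3.17 RPKM in Dex, against 2.15 and 2.59 RPKM in Vehicle (0.37 ± 0.33, adjusted p = 0.480). Slc22a4, the ergothioneine and carnitine carrier of the same chromosomal cluster, had 4.18 and 6.65 RPKM in Dex at its promoter, against 2.77 and 2.46 RPKM in Vehicle, 1.04 ± 0.42 with adjusted p = 0.0757, so the groups were apart and the test was not passed. Its other 4 regions were intronic and in the Dex set only.

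The strongest transporter region of all had Slc22a23 as its nearest gene, at 117 kb upstream (chr13:34462181-34463069). It had 12.9 and 18.3 RPKM in Dex, against 6.14 and 8.03 RPKM in Vehicle (log2 fold change 1.15 ± 0.45, adjusted p = 0.0658). The groups did not overlap and the edgeR threshold was missed, while DESeq2 gave an adjusted p of 0.0482 there. The second shared region of Slc22a23, 56.6 kb downstream in an intron, had 6.30 and 8.21 RPKM in Dex, against 3.68 and 7.38 RPKM in Vehicle (0.43 ± 0.39, adjusted p = 0.482), with Vehicle library 2 inside the Dex range. Of its 12 regions found after Dex only, 10 lay downstream of the nearest TSS.

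Slc22a16, a carnitine and cation transporter known from human testis, was the nearest gene to a run of 6 intergenic regions 50.7 to 75.5 kb upstream. At 70.5 kb upstream (chr10:40499420-40500238) it had 4.76 and 6.07 RPKM in Dex, against 2.16 and 2.97 RPKM in Vehicle (log2 fold change 1.11 ± 0.36, adjusted p = 0.0298). At 75.5 kb upstream it had 5.06 and 6.96 RPKM in Dex, against 2.79 and 3.09 RPKM in Vehicle (1.04 ± 0.38, adjusted p = 0.0512). The groups did not overlap at either region, and the 70.5 kb region passed the threshold while the 75.5 kb region did not. The strongest of the run, 50.7 and 53.7 kb upstream with 7.44 and 9.07 RPKM and with 7.39 and 8.27 RPKM, were in the Dex set only. Which gene these regions act on was not measured. Slc22a15, another orphan of the family, had 7 regions in the Dex set only, the strongest 24.3 kb upstream with 5.02 and 8.44 RPKM.

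At Slc22a7 and Slc47a1 the group ranges overlapped and no difference passed the test. Slc22a7, a hepatic organic anion transporter, had 4.22 and 4.66 RPKM in Dex at its promoter, against 4.50 and 4.71 RPKM in Vehicle (log2 fold change -0.05 ± 0.32, adjusted p = 0.944). Slc47a1, the canalicular proton and cation exchanger, had 4.87 and 6.97 RPKM in Dex at its promoter, against 3.62 and 6.02 RPKM in Vehicle (0.33 ± 0.43, adjusted p = 0.651). The Dex region there was 1263 bp wide and the Vehicle region 393 bp. With no width correction it was among the 24 of 27 transporter regions called. The Slc47a1 region 29.7 kb upstream had 2.30 and 2.53 RPKM in Dex, against 2.05 and 4.00 RPKM in Vehicle (-0.27 ± 0.33, adjusted p = 0.626). At all 3 regions a Vehicle library lay within or above the Dex range. Slc22a6, an organic anion transporter of the kidney, had a shared region 12.9 kb downstream with 3.26 and 5.10 RPKM in Dex, against 3.11 and 2.38 RPKM in Vehicle (0.58 ± 0.38, adjusted p = 0.311). Its widths were 1286 bp in Dex and 460 bp in Vehicle, and this region too was called with no width correction.

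**Figure D3:**
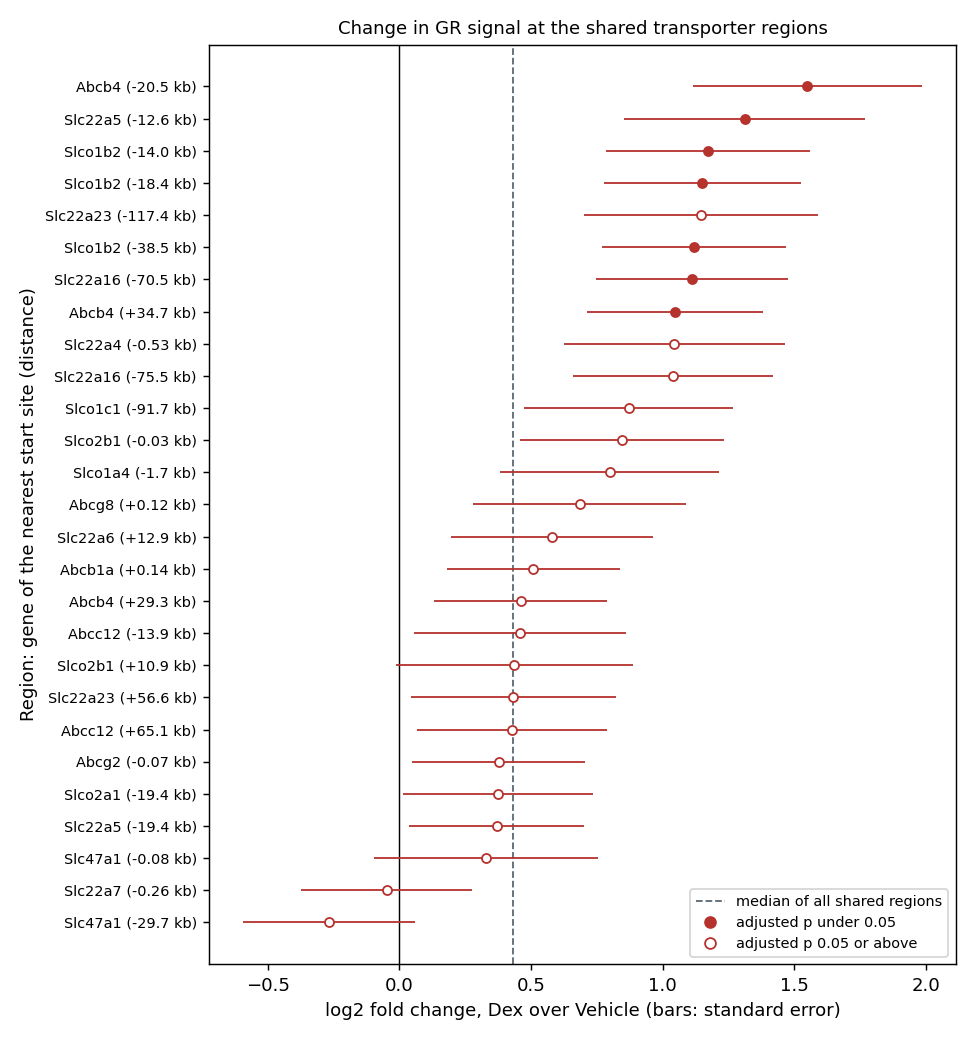
Log2 fold change of GR signal, Dex over Vehicle (horizontal axis, points with SE bars), for the 27 shared transporter regions in descending order, with filled points for an adjusted p under 0.05 and a dashed line at the median of all shared regions (0.43). The 7 filled points lie between 1.05 and 1.55, and Slc22a7 (-0.05) and Slc47a1 (-0.27) are the lowest.

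Of the canalicular genes, Abcb4, which moves phosphatidylcholine into bile, had the largest change among transporter regions. At 20.5 kb upstream (chr5:8872664-8873838), between Abcb1b and Abcb4, the signal was 5.19 and 6.91 RPKM in Dex, against 1.96 and 2.19 RPKM in Vehicle, a log2 fold change of 1.55 ± 0.43 (adjusted p = 0.0115). The nearest start site of Abcb1b lay 21.7 kb from this region, so Abcb4 was the nearer gene by a small margin. A region 34.7 kb downstream (chr5:8928400-8928831), at an annotated internal start site of Abcb4, had 4.16 and 6.99 RPKM in Dex, against 2.62 and 2.82 RPKM in Vehicle (1.05 ± 0.33, adjusted p = 0.0260). An intronic region 29.3 kb downstream had 3.92 and 3.74 RPKM in Dex, against 2.34 and 3.37 RPKM in Vehicle (0.46 ± 0.33, adjusted p = 0.351). Dex was above Vehicle in every library pair at all 3 regions, and 2 of them passed the test. The promoter of Abcb4 had a region in the Dex set only, with 2.68 and 2.94 RPKM.

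The drug efflux pumps Abcb1a and Abcb1b, the 2 mouse P-glycoproteins, had weaker regions. Abcb1a had 1, at its promoter, with 2.65 and 3.63 RPKM in Dex, against 1.98 and 2.54 RPKM in Vehicle (log2 fold change 0.51 ± 0.33, adjusted p = 0.299). Abcb1b had 3 in the Dex set only, the strongest 7.93 kb upstream with 2.03 and 2.48 RPKM. Abcg2, an efflux pump for drugs and urate, had 2.095 and 3.36 RPKM in Dex at its promoter, against 1.89 and 2.41 RPKM in Vehicle (0.38 ± 0.33, adjusted p = 0.462). The groups overlapped at Abcg2 and were apart by a small margin at Abcb1a.

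Abcg5 and Abcg8, which together form the exporter of sterols into bile, share a promoter. The region there, 117 bp from the Abcg8 TSS and 237 bp from that of Abcg5, had 4.89 and 6.13 RPKM in Dex, against 3.06 and 3.87 RPKM in Vehicle (log2 fold change 0.68 ± 0.41, adjusted p = 0.248). The strongest region of the pair, in an Abcg8 intron 10.8 kb downstream, had 6.52 and 9.88 RPKM and was in the Dex set only. Abcc2 had 8 regions and none in Vehicle, with 2.22 and 2.57 RPKM at the promoter and, at its strongest region, 6.51 and 8.14 RPKM at an internal start site 15.1 kb downstream. The Abcc2 region with the GRE printed above, 7.42 kb upstream of its nearest TSS and inside an Abcc2 intron, had 3.51 and 5.27 RPKM.

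The genes of sinusoidal and lateral efflux had regions in the Dex set only, at 5 of 6 genes with 15 regions in all. Of all protein-coding genes 50.2% had a Dex region and 18.3% a Vehicle region, and 81.7% of all Dex regions had no Vehicle counterpart. Abcc3, a basolateral exporter of conjugates, had 6.49 and 7.14 RPKM at its promoter, the strongest of the 6 genes. Abcc6, the gene mutated in pseudoxanthoma elasticum, had 4.69 and 5.62 RPKM 1.38 kb downstream. Abcc4, an exporter of cyclic nucleotides and bile acid conjugates, had 3.34 and 4.55 RPKM in an intron. Abcg1, which exports cholesterol to high-density lipoprotein, had 2.83 and 4.19 RPKM 17.8 kb upstream. Abcc1 had no region.

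The intracellular ABC transporters of mitochondria and lysosomes had Dex regions at 4 of 5 genes and no Vehicle region, 6 regions in all. These stand beside 50.2% of all protein-coding genes with a Dex region and 18.3% with a Vehicle region. Abcb10, a mitochondrial protein of haem synthesis, had 6.16 and 7.56 RPKM in an intron 9.48 kb downstream, and Abcb6 and Abcb8 had 1 promoter region each. Of the sulfonylurea receptors, Abcc9 had 3 Dex regions and Abcc8 had 0. Abcc12, a member known from testis in mice, was the nearest gene to 7 regions. Its shared region 13.9 kb upstream had 5.14 and 5.92 RPKM in Dex, against 3.21 and 4.97 RPKM in Vehicle (log2 fold change 0.46 ± 0.40, adjusted p = 0.466). A stronger one 17.2 kb upstream had 6.93 and 9.80 RPKM and was in the Dex set only.

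**Figure D4:**
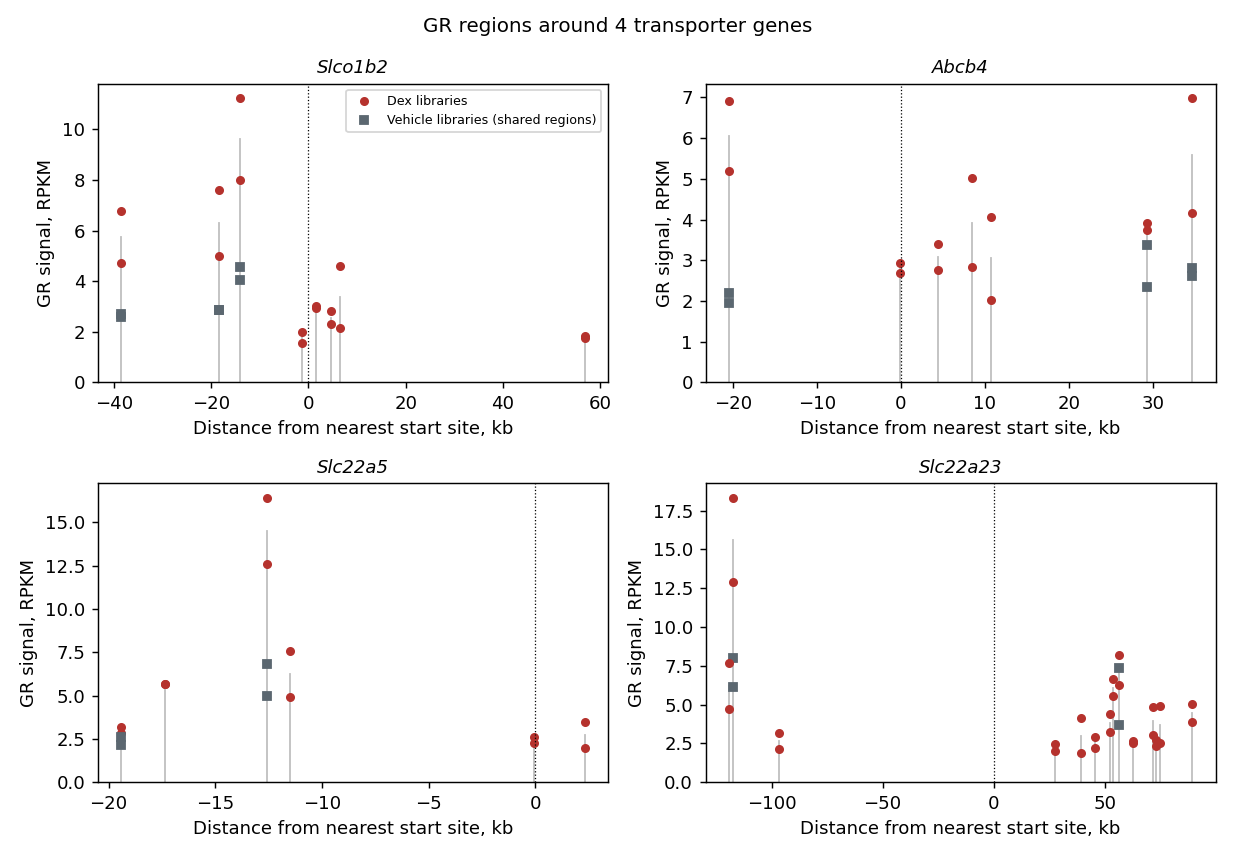
GR signal (vertical axis, RPKM) against distance from the nearest start site (horizontal axis, kb) for every Dex region of Slco1b2, Abcb4, Slc22a5 and Slc22a23, with red circles for the 2 Dex libraries, grey squares for the 2 Vehicle libraries at shared regions, and a thin line up to the Dex mean. The highest regions of Slco1b2 (8.00 and 11.2 RPKM), Slc22a5 (12.6 and 16.4 RPKM) and Slc22a23 (12.9 and 18.3 RPKM in Dex) lie upstream and away from the start site.

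Grouped by site of action, hepatocyte sinusoidal uptake genes had Dex regions at 9 of 10 genes and Vehicle regions at 7, with 4 of 11 shared regions higher after Dex and a median log2 fold change of 0.84. Canalicular and apical efflux genes had Dex regions at 7 of 8 and Vehicle regions at 5, with 2 of 8 shared regions higher and a median of 0.48. Of 15 genes known mainly from kidney, brain or testis, 10 had a Dex region and 3 a Vehicle region, with 1 of 4 shared regions higher and a median of 0.95. Over all features 50.2% of genes had a Dex region and 18.3% a Vehicle region, 11.8% of shared regions were higher and their median was 0.43, and no difference between the lists was tested. By position, 12 shared regions at promoters had a median of 0.60 with 2 called, and 15 others had a median of 0.87 with 5 called. Over all shared regions the same order held, with 0.18 and 4.47% called at promoters and 0.65 and 17.7% called elsewhere.

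Genes of the same physiology outside the transporter families were counted for comparison. Of 12 nuclear receptors and other regulators of transporter genes all had a Dex region and 8 a Vehicle region, and 2 of 20 shared regions were higher after Dex, at Nr0b2 and Rxra, with a median log2 fold change of 0.54. Of 16 other hepatocyte transport genes 14 had a Dex region and 10 a Vehicle region. There 3 of 15 shared regions were higher, at Abca1, Abcd3 and Slc7a2, with a median of 0.45. Of the shared regions of the 8 hepatocyte markers counted above 7 of 15 were higher, at Alb, Cyp7a1 and Tat (median 0.90). At the endothelial and stellate markers 3 of 6 were higher, at Lyve1, Pecam1 and Stab2 (median 0.93), at the cholangiocyte markers 1 of 6, at Sox9 (median 0.43), and at the lymphocyte markers 0 of 1 (0.61). These stand beside 7 of 27 and a median of 0.68 at the transporter genes and 11.8% and 0.43 over all shared regions, and no difference between these lists was tested.

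Motif letters were searched on both strands in the 200 bp about each region's centre. A full GRE, GNACA and TGTNC with any 3 bases between them, was present in 2 of 154 transporter Dex regions (1.30%, exact 95% interval 0.158 to 4.61% for counting error only), against 2.70% of all 31298 Dex regions searched. These are the Slco1a4 and Abcc2 regions. In whole regions it was in 5 (3.25%, against 4.60%). The single GR hexamer AGAACA, which can overlap a full GRE, was in 28 (18.2%, against 19.2%). Both shares were at or below those over all regions.

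Of the other motifs, the HNF4A letters CAAAGTCCA were in 6 transporter regions (3.90%, against 1.40%), at Abcb1a, Abcb4, Slco2b1, Slc22a23 and 2 times at Slco2a1. The C/EBP letters TTGCNNAA were in 31 (20.1%, against 13.1%). The antioxidant response element TGACNNNGC was in 18 (11.7%, against 10.4%) and the E-box CACGTG in 10 (6.49%, against 4.34%). The FXR inverted repeat (GGTCA and TGACC with 1 base between them) and the HNF1 letters (GTTAAT and ATTA with 1 base between them) were in 0 (0.0799% and 0.128% of all). Of the HNF4A matches 3 lay in shared regions, at the Abcb1a and Slco2b1 promoters and the upstream Slco2a1 start site, none of which passed the test. Of the 7 regions higher after Dex, none held the full GRE, 5 held at least 1 GR hexamer over their whole length, and the Slc22a5 region and the Slco1b2 region 14.0 kb upstream had 2 each. Over whole regions the hexamer was in 40.9% of transporter Dex regions and 41.0% of all Dex regions, and no difference was tested. These matches describe letters and do not show which protein was bound. Under the genotype of the labels, a floxed Hnf4a gene with hepatocyte Cre, HNF4A itself may be missing from hepatocytes, and that genotype is not settled here.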

How the data were processed

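GR ChIP-seq of 2 ZT18 Dex and 2 ZT18 Vehicle liver samples was used, grouped by title. Alignment to mm10 with Bowtie 1.1.0, SAMtools 1.2 and region calling with MACS2 2.1.1 are listed in the submitters' processing notes. The authors called 1 region set per treatment across ZT6 and ZT18 and deposited, per region and library, whole read counts and RPKM, from which each library total was recovered. The deposited signal score and further scaled columns were not compared between treatments. Another 4 tables with 20 value columns (ZT6) were not used. Spike-in chromatin was added, with a scaling factor not given in the sources used here.

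Regions sharing at least 1 bp (bedtools 2.31.1) were matched one to one and tested with edgeR 4.0.16 under R 4.3.3, two-sided, with an offset of library total times region width, at least 10 reads in at least 2 libraries (0 regions removed) and a Benjamini-Hochberg threshold of 0.05 over all 5665. No composition scaling was applied. Each region's spread came from a trend over regions, so neither an SE nor a p-value of this test carries the region's own replicate spread. An exact permutation test of 2 samples per group has a smallest p of 0.33. Simulated counts were used to check the script. Genes came from GENCODE M21, motifs from the GRCm38.p6 sequence.

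The text names every called region, the strongest region of 23 genes of known liver role, the 10 strongest Dex regions, the 5 largest and 5 smallest changes, and genes with 5 or more Dex regions. Members, lists and rules were chosen with earlier results of these data known. One listed gene, Slco6b1, is no protein-coding gene in the annotation. Alternatives were TMM and shared-region scaling, no width correction, other count minimums, DESeq2 1.42.0, a replicate block, leaving out each library, a 50% overlap and other assignments. No paired covariate entered the test. Of the genes with a Dex region, 2 are counted but not reported by name here.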

Additional observations from a re-analysis of the deposited data

How the results depend on the processing

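The scaling set the size of most changes. With TMM scaling 336 of all shared regions were higher, 2 transporter regions were called and the transporter median was 0.22. With shared-region totals these were 243, 2 and 0.14, with DESeq2 265, 3 and 0.23, and with no width correction 3845, 24 and 1.38. The DESeq2 counts leave out regions to which it gave no adjusted p, some transporter regions among them. Log2 fold changes that changed sign with TMM were Slc22a5 at 19.4 kb (-0.11), the Slc47a1 promoter (-0.11), Abcg2 (-0.12), Abcc12 at 65.1 kb (-0.055) and Slco2a1 at 19.4 kb (-0.061). With DESeq2 the same regions gave -0.10, -0.11, -0.11, -0.040 and -0.054. With shared-region totals they gave -0.19, -0.19, -0.20, -0.14 and -0.14, and Slc22a23 at 56.6 kb (-0.057), Slc22a6 (-0.052), Abcb1a (-0.063), Abcb4 at 29.3 kb (-0.065), Slco2b1 at 10.9 kb (-0.062) and Abcc12 at 13.9 kb (-0.053) changed sign too. With no width correction Slc22a7 gave 0.49. None of these regions had passed the test. For the 2 calls kept under TMM, shared-region totals and DESeq2, at Abcb4 (20.5 kb) and Slc22a5 (12.6 kb), the direction held in each setting tried, and neither passed the threshold with any library left out.

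With each library left out in turn, the calls over all shared regions ran from 3 to 323, the transporter calls from 0 to 3 and the transporter median from 0.49 to 0.96. Changes of sign were seen at 5 regions, whose log2 fold changes ran from -0.12 to 0.021 at Slc22a7, from -0.0083 to 0.67 at Abcg2, from -0.023 to 0.71 at the Slc47a1 promoter, from -0.73 to 0.23 at 29.7 kb from Slc47a1 and from -0.025 to 0.98 at 56.6 kb from Slc22a23. Fewer samples enter each of these fits, and a lone library was taken to vary like the others.

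No label gives a shared source for same-numbered libraries, and whether the replicate numbers pair the samples is not settled. Deviations of same-numbered libraries had a correlation of 0.08 over regions. This measure leaves out a shift common to all regions, so it cannot decide on pairing. With the number as a replicate block, 2122 of all shared regions and 13 transporter regions were called, and the median was 0.67. An overlap of 50% and count minimums of 0 or 30 reads gave 7 transporter calls each.

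Assignment moved the counts of genes. Over an own promoter, 28 genes had a Dex region and 10 a Vehicle region, with 1 of 10 shared regions called. Of all shared regions at any promoter, 4.47% were called. Within 10 kb of the TSS, 8 genes had a Vehicle region and 0 of 8 shared regions were called, and the shares over all genes and regions within 10 kb are not given here. Where not given, the cause was not tested. Vehicle library 2, with a median of 52 reads at the shared transporter regions, limits the precision of single regions.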

Other observations

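At the 27 shared transporter regions library 2 exceeded library 1 within both groups, at 26 regions in Dex (median log2 RPKM ratio 0.46) and at 22 in Vehicle (0.34). The median log2 RPKM ratio of Dex over Vehicle depended on the libraries paired, from 0.36 for Dex library 1 over Vehicle library 2 to 1.14 for Dex library 2 over Vehicle library 1, against 0.13 and 0.75 over all shared regions. The Dex regions were a median 1.495 times as wide as their Vehicle counterparts, against 1.45 times over all shared regions.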
